A study of Mus musculus with 2 samples.

Results

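The cells described here are the 1574 B16F10 cells in the authors' deposited cell table, out of 4156 cells in all. They are split by the authors' class into 1230 cycling cells (78.1%) and 344 non-cycling cells (21.9%). B16F10 is a highly metastatic subclone of the mouse melanoma line B16, and B16F0 is the parental line. Each line was grown in culture, without a treatment in the labels, and was represented by 1 droplet library in which the 3' ends of transcripts were counted by unique molecular identifiers (UMIs). The parental library held 1411 cycling and 1171 non-cycling B16F0 cells and serves below as a second set of values for the same contrast. With 1 library per line, cells are not replicates. No test was therefore made, and every interval covers counting error only.

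A dividing cell copies its DNA in S phase, separates the copies in mitosis, and makes the proteins for each step largely when they are needed. E2F transcription factors switch on replication genes around the entry into S phase. MuvB complexes together with B-Myb and FoxM1 switch on mitotic genes later. In cells that leave the cycle, the DREAM complex and RB hold both sets down. In melanoma, slowly cycling cells are studied for drug tolerance, and the histone demethylase Kdm5b is a known marker of them.

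The class was made from 2 deposited scores per cell, for S and for G2/M. Every cell with either score above 0 was called cycling, and every other cell non-cycling. The class is therefore a range of scores with a line drawn through it, not a cell type. The lowest cycling cell had a higher score of 0.00535 and the highest non-cycling cell had -0.00365. Within 0.05 of the line lay 43 cycling and 40 non-cycling cells. Of the cycling cells, 652 had an S score above their G2/M score and are called S-leaning, and the other 578 are called G2/M-leaning. The standard scoring genes, of which 100 were in the counts, made up 0.969% of the UMIs in cycling cells and 0.27% in non-cycling cells. They are left out of every count and list below.

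**Figure D1:**
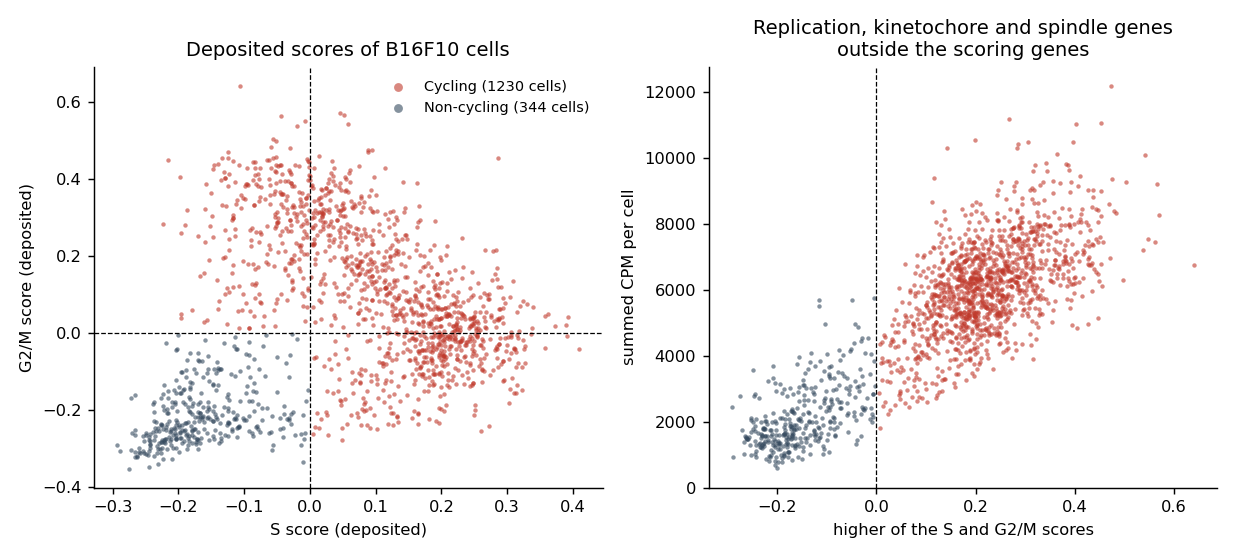
Left, the deposited S score (x axis) and G2/M score (y axis) of each B16F10 cell, with dashed lines at 0. Right, the higher of the 2 scores (x axis) and the summed CPM of replication, kinetochore and spindle genes outside the scoring genes (y axis), 1 point per cell. Cycling cells are red and non-cycling cells dark blue, and the summed level runs on across the line at 0, with medians of 3811 CPM in the 43 cycling cells and 2884 CPM in the 40 non-cycling cells nearest to it.

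Cycling cells held more RNA molecules than non-cycling cells, with medians of 36316 and 30188.5 UMIs, and their median cell had 5486.5 and 4847.5 detected genes. The share of UMIs from the mitochondrial genome was 6.57% in cycling cells and 7.6% in non-cycling cells, and that from ribosomal protein genes was 25.6% and 29.6%. The authors' clusters divided the classes unevenly: cluster C3 held 26 cycling and 280 non-cycling cells, cluster C5 held 986 and 59, and cluster C4 held 212 and 0. The melanocyte markers fixed for the check were all detected, 7 of 7, and summed to 7750 CPM (UMI counts scaled to the same total in each class) in cycling cells and 7664 CPM in non-cycling cells. Other cell types had few marker UMIs. Fibroblast markers, of which 3 of 7 were in the counts, summed to 3.80 and 3.94 CPM, and macrophage markers, 2 of 6, to 3.33 and 6.36 CPM. Of the keratinocyte markers only Cdh1 was in the counts, at 0.0439 and 0 CPM, where a count of 0 allows up to 0.269 CPM. None of the 6 T and NK cell markers was in the counts. The endothelial list gave 64.7 and 67.1 CPM in sum, nearly all of it from Egfl7, at 62.8 and 63.4 CPM.

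Sequences before the start sites of the genes at both ends of the comparison are shown first, because several of the genes named highest hold the same short motifs there. The motifs searched on both strands were the cell cycle homology region (CHR, TTTGAA or TTCGAA, the second of which reads the same on both strands), bound by MuvB complexes, the CCAAT box bound by NF-Y, and E2F sites (TTTCCCGC, TTTGGCGC, TTTCGCGC or TTTGCCGC). RefSeq windows on GRCm38.p6 run from 250 bases before to 50 bases after a start, and 10 of the 12 genes named highest and 10 of the 12 named lowest had one. A CHR match stood in 7 of the 10 highest and 0 of the 10 lowest, a CCAAT box in 8 and 4, and an E2F match in 3 and 0. Among all genes with a window, CHR letters occurred in 21.7%, CCAAT in 41.1% and the E2F letters in 2.6%. Over the 5306 genes counted in this comparison, 4349 had a window, and the shares were 16%, 42.5% and 5.38%. The whole set of called genes stood nearer to these shares than the ends did, except for CCAAT among the lower genes. Among the 509 of 613 higher genes with a window, CHR letters occurred in 24.4%, CCAAT in 54.0% and E2F letters in 13.2%, each above the share of the counted genes. Among the 150 of 185 lower genes with a window, the shares were 16%, 47.3% and 2.0%.

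In the following 110 bases before and 10 bases after an annotated start, capitals mark those motifs. Prc1, Asf1b, Ncapg2, Pclaf and Ccnb1 are from the high end and show the CHR, CCAAT and E2F letters in different combinations, while Mxd4 and Bnip3 are from the low end.
Prc1 (chr7:80294366-80294485, plus strand): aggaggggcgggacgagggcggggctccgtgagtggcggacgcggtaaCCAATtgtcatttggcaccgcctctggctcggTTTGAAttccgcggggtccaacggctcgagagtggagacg
Asf1b (chr8:83955584-83955703, plus strand): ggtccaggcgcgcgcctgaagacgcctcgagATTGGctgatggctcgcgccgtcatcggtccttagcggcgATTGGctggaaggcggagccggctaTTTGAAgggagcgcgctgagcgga
Ncapg2 (chr12:116405326-116405445, plus strand): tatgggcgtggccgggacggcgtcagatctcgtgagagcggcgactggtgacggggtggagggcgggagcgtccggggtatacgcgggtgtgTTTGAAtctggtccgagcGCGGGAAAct
Pclaf (chr9:65890213-65890332, plus strand): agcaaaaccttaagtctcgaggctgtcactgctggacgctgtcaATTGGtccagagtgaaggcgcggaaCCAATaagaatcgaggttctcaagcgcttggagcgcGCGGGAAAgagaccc
Ccnb1 (chr13:100786477-100786596, minus strand): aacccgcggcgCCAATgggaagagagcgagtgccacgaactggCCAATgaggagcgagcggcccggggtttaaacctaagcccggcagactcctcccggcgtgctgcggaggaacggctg
Mxd4 (chr5:34187701-34187820, minus strand): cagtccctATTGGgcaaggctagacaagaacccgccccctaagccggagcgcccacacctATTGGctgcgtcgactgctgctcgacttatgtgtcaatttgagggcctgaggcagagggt
Bnip3 (chr7:138909497-138909616, minus strand): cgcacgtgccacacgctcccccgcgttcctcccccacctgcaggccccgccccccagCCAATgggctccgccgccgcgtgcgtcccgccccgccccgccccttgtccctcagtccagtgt
In Prc1 the CHR begins 30 bases and the CCAAT box 62 bases before the farther downstream of its 2 annotated starts, and in Asf1b the CHR begins 14 bases before the start, with 4 CCAAT boxes on the opposite strand of its window. A match is a description of the letters and not evidence of binding.

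The comparison itself asks which transcripts outside the scoring genes differ between cycling and non-cycling B16F10 cells. Genes of mitosis and DNA replication were far higher in cycling cells, by up to about 20-fold among well-measured genes. Mxd4, which represses Myc targets, stood more than 2-fold lower. The melanocyte genes Dct, Tyrp1 and Pmel stood at nearly the same level in both classes as a whole, but Dct and Pmel had log2 ratios of 0.54 and 0.71 within cluster C5. A gene was counted if either class had 20 CPM or more. Of 5306 such genes, 613 (11.6%) stood higher in cycling cells by 1.5-fold or more and 185 (3.49%) stood lower by as much. In these sums alone, fewer cells with a transcript and less of it per cell cannot be told apart. Cells thinned to equal UMIs give the share of cells with a transcript. The cyclin A2 gene Ccna2 was found in 83.5% of thinned cycling and 13.2% of thinned non-cycling cells, and Mxd4 in 19.8% and 60.6%. Bnip3, also lower in cycling cells by the sums, was found in 33.4% and 37.6%, so its shares lay much closer together. At 2-fold, 209 genes (3.94%) passed on the high side and 49 (0.923%) on the low side. Cycling over non-cycling, the log2 ratio of the median gene was 0.11.

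The balance of higher and lower genes depended on the scaling. Of the genes called at 1.5-fold, 76.8% were the higher ones. Scaled by a total without mitochondrially encoded and ribosomal protein transcripts, the median gene stood at -0.02 and that share was 56.9%. Taken as mean UMIs per cell with no scaling, the median gene stood at 0.31 and the share was 93.2%, since a cycling cell held 1.14 times the UMIs of a non-cycling cell on average. Among the 1187 cycling and 304 non-cycling cells farther than 0.05 from the line, 664 genes were higher and 204 lower.

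Cyclin A2, which drives S phase and the entry into mitosis, had the highest ratio among genes with at least 50 CPM. Ccna2 (chromosome 3, 36564865 to 36572150 on GRCm38, protein-coding) stood at 115 CPM (95% Poisson interval 112 to 118) in cycling cells and 5.64 CPM (4.34 to 7.22) in non-cycling cells, a log2 ratio of 4.35 (3.99 to 4.73). Prc1, which bundles the microtubules of the central spindle, stood at 90.5 CPM in cycling cells and 5.02 CPM in non-cycling cells, a log2 ratio of 4.17 (3.79 to 4.58). The shugoshin gene Sgo1, which guards centromeric cohesin, had 98.3 and 6.0 CPM (log2 ratio 4.03). The other mitotic genes of the high end followed: Spc25 of the Ndc80 kinetochore complex at 3.51, the condensin subunit genes Ncapg2 and Smc2 at 3.42 and 3.06, and Mis18a, needed to load the centromeric histone, at 3.22. Cyclin B1, the partner of Cdk1 in mitosis, had 75.9 CPM in cycling cells and 8.78 CPM in non-cycling cells (3.11), the kinetochore gene Cenpq had a log2 ratio of 3.01, and the mitotic kinase gene Pbk had 2.79.

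Pclaf was the most abundant of the 12 genes named highest. It encodes a small partner of the replication clamp PCNA and stood at 576 CPM (569 to 583) in cycling cells and 55.1 CPM (50.8 to 59.6) in non-cycling cells, a log2 ratio of 3.39 (3.27 to 3.50). Asf1b, a histone chaperone that works at the replication fork, had 64.9 and 8.87 CPM, a log2 ratio of 2.87. All 12 genes stayed at least 1.5-fold higher in cycling cells under each of the 18 alternatives run. Of these alternatives, 3 change only the CPM minimum and so leave the ratio of a gene as it was. Within cluster C5 the log2 ratios of the 12 genes ran from 1.33 for Pbk to 3.15 for Prc1. Ccna2, Prc1, Pclaf and Cenpq overlap annotated genes on the opposite strand (Exosc9, Rccd1, Trip4 and Mut), and since the use of strand is not stated, reads of such partners cannot be told apart.

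Below 50 CPM the ratios were larger and rested on few molecules in the non-cycling class. Esco2, which acetylates cohesin in S phase, had 960 UMIs in cycling cells and 3 in non-cycling cells, a log2 ratio of 6.29 with an interval of 4.74 to 8.57. Aspm, which focuses spindle poles, had 1018 and 4 UMIs (5.96, 4.6 to 7.84), and the kinetochore scaffold gene Knl1 had 1084 and 7 UMIs (5.24, 4.20 to 6.56).

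Grouped by role, DNA replication genes outside the scoring genes had 22 counted members of 32, of which 21 were at least 1.5-fold higher and none was lower, with a median log2 ratio of 2.09. Mcm10, which acts with the replicative helicase, stood at 38.5 CPM in cycling cells and 2.24 CPM in non-cycling cells (4.10), and the chromatin assembly gene Chaf1a at 81.2 and 12.2 CPM (2.74). Chaf1a overlaps Ubxn6 (69.4 and 92.3 CPM) on the opposite strand by 5245 bases, and reads of these genes cannot be told apart there. Of 7 counted genes of homologous recombination and Fanconi repair, 6 were higher (median 1.84), including the checkpoint kinase gene Chek1 at 2.61. Rad54l, a recombination gene at 2.90, overlaps Lrrc41 on the opposite strand by 2780 bases, and its reads and those of Lrrc41 (14.2 CPM in cycling and 19.7 CPM in non-cycling cells) cannot be told apart there. Nucleotide and one-carbon synthesis had 10 of 19 members higher and none lower (median 0.59). Over the same members, the median of this list was 0.38 within C3 and 0.26 within C5. Its leading member was Tk1, the S phase thymidine kinase, at 132 CPM in cycling cells and 19.3 CPM in non-cycling cells (2.78), with 0.58 within cluster C3.

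The mitotic lists stood higher over all cells. All 17 counted genes of spindle and cytokinesis were at least 1.5-fold higher, with a median of 3.39, and 22 of 23 kinetochore and checkpoint genes were, with a median of 2.44. The exception was Pttg1, the securin gene, at -0.32. Chromosome structure and chromatin had 20 of 21 members higher (median 1.24), with the condensin gene Ncaph at 3.61 at the top. Over the same members, the medians within clusters C3 and C5 were 1.38 and 2.26 for spindle and cytokinesis and 1.46 and 1.43 for kinetochore and checkpoint. They were 1.52 and 1.41 for DNA replication, 1.99 and 1.23 for recombination and Fanconi repair, and 0.41 and 0.62 for chromosome structure, so within C3 the mitotic lists did not stand above the replication list. The cell cycle transcription factor, cyclin and kinase list had 14 of 20 higher and none at least 1.5-fold lower (median 1.38). Its members at work in the S and G2/M programmes were Mybl2, which encodes B-Myb, at 3.82, Foxm1 at 2.65, E2f1 at 2.01 and Fbxo5, an inhibitor of the anaphase-promoting complex, at 4.49. The mitotic kinase gene Plk1 stood at 40.7 CPM in cycling cells and 2.87 CPM in non-cycling cells (3.83). These lists were chosen with results of these cells known, and their members vary with the scoring genes that made the class.

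**Figure D2:**
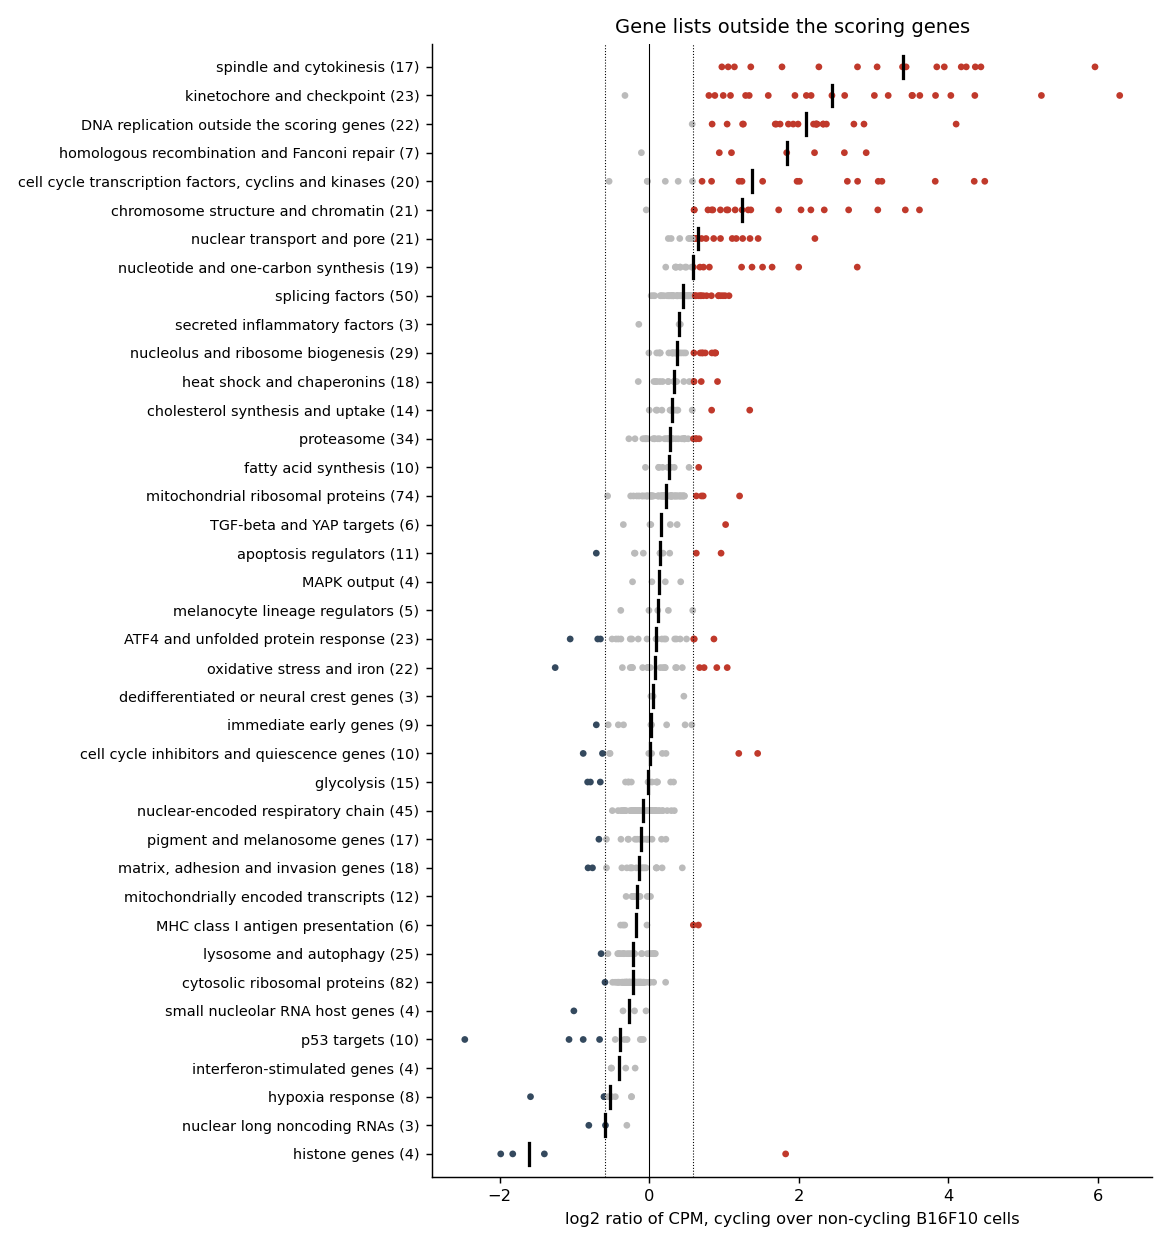
Each row is a gene list, with its number of counted members in brackets, and each point is a member's log2 ratio of CPM, cycling over non-cycling B16F10 cells. Red points are at least 1.5-fold higher, dark blue points at least 1.5-fold lower and grey points between, dotted lines mark 1.5-fold, and black bars are medians, which run from 3.39 for spindle and cytokinesis to -1.61 for the 4 counted histone genes.

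Among genes that act in G1, cyclin D1, which answers to growth signals, stood at 147 CPM in cycling cells and 127 CPM in non-cycling cells (log2 ratio 0.21, 0.13 to 0.30), and Ccnd2 was at -0.54. Cyclin E1 had 64.3 and 36.1 CPM (0.83), and its log2 ratio was 0.32 within C5. Myc had 15.9 and 11.9 CPM (0.41, 0.15 to 0.69). In the abundant class, the chromatin and cytoskeleton genes H2afz, Hmgb1, Stmn1 and Tuba1b had log2 ratios of 0.85, 1.05, 1.06 and 1.14, all below 1.5-fold within both clusters, where the values ran from 0.13 to 0.50. These have near-identical copies in the genome, so their values are uncertain.

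Several growth and biosynthesis lists stood moderately higher in cycling cells. In the nuclear transport and pore list, 15 of 21 members passed 1.5-fold upward (median 0.65), led by the importin gene Kpna2 at 2.22, Nup37 at 1.46 and Rcc1, the exchange factor for Ran, at 1.35. Of 50 splicing factors 15 were higher and none lower (median 0.46), with Srsf4 at 1.07, Hnrnpd at 1.02 and Srsf7 at 0.99. Within C3, Kpna2 had 0.28, Nup37 0.57 and Hnrnpd -0.11, and within C5, Rcc1 had 0.35, Hnrnpd 0.57 and Srsf7 0.50, all short of 1.5-fold. Of 29 nucleolus and ribosome biogenesis genes 9 were higher (median 0.37), among them Rrp1b, the pseudouridine synthase gene Dkc1 and Nop58 at 0.89, 0.88 and 0.87, of which Dkc1 had 0.03 and Nop58 0.31 within C3. Over the same members, the transport, splicing and nucleolus medians were 0.35, 0.14 and 0.26 within C3 and 0.48, 0.16 and 0.25 within C5. The proteasome list (median 0.27, 4 of 34 higher), heat shock and chaperonins (0.33, 4 of 18) and mitochondrial ribosomal proteins (0.22, 4 of 74) differed little as lists. Of all counted genes, 11.6% were higher, with a median of 0.11. Within cluster C3 the proteasome and heat shock medians were -0.13 and -0.04, and within cluster C5 the proteasome median was -0.06 and the mitochondrial ribosomal median -0.03. Single members stood out, such as Mrpl18 at 333 CPM in cycling cells and 144 CPM in non-cycling cells (1.21). Mrpl18 overlaps Tcp1 (327 and 274 CPM) on the opposite strand by 645 bases, and reads of these genes cannot be told apart there.

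Cholesterol synthesis had 2 of 14 members higher and a median of 0.30, where all 5306 counted genes had 11.6% higher and a median of 0.11. Over the same members, the list median was 0.06 within C3 and 0.26 within C5. The thiolase gene Acat2 had 35.9 and 14.2 CPM (1.34), and Idi1 had a log2 ratio of 0.83. Idi1 turned to -0.50 within cluster C3, where cycling cells held 7 UMIs of it, and Acat2 had 0.54 within C3 and 0.50 within C5. The transferrin receptor gene Tfrc, which brings iron into the cell, stood at 78.1 CPM in cycling cells and 37.9 CPM in non-cycling cells (1.04), and Gsr, which regenerates glutathione, at 42.2 and 22.6 CPM (0.90). Both come from the oxidative stress and iron list, which had 4 of 22 members higher, 1 lower and a median of 0.08. Of all counted genes, 11.6% stood higher and 3.49% lower. Id2, an inhibitor of differentiation factors, had 219 and 108 CPM (1.02), and the tumour suppressor gene Trp53 had 67.7 and 43.7 CPM (0.63). Within C3 the log2 ratios of Tfrc, Gsr, Id2 and Trp53 were 0.18, 0.10, 0.13 and 0.23, and within C5 they were 0.72, 0.11, 0.41 and 0.42, so only Tfrc within C5 passed 1.5-fold there.

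At the low end, Mxd4 had the lowest ratio among genes with at least 50 CPM. It encodes a partner of Max that represses Myc targets and is known from differentiating cells. Mxd4 stood at 13.1 CPM (12 to 14.2) in cycling cells and 60.9 CPM (56.4 to 65.7) in non-cycling cells, a log2 ratio of -2.22 (-2.38 to -2.06). Its ratio was -1.24 within cluster C3 and -2.27 within cluster C5, more than 2-fold in both but smaller within C3 than over all cells. Kdm7a, a demethylase of repressive histone marks, had 21.0 and 56.9 CPM (-1.44), and Ypel3, known in human cells as a p53-induced growth suppressor, had 30.2 and 73.3 CPM (-1.28). Kdm7a had -0.73 within C3 and -1.30 within C5, and Ypel3 -0.63 and -0.66. The heme oxygenase gene Hmox1 had 30.4 and 72.7 CPM (-1.26), and its log2 ratio was -1.03 within C3 and -0.94 within C5.

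The other genes of the low end were also lower in cycling cells over the whole library, and some of them turned or fell short of 1.5-fold within a cluster. Bnip3, a mitophagy receptor induced by hypoxia, stood at 41.2 CPM in cycling cells and 124 CPM in non-cycling cells (-1.59, -1.69 to -1.49). The tenth of the cells with the most Bnip3 held 71.9% of its UMIs in the cycling class and 78.6% in the non-cycling class. Within cluster C3 its log2 ratio was -1.58, while within cluster C5 it stood at 43.8 CPM in cycling cells and 20.3 CPM in non-cycling cells, a log2 ratio of 1.11 that rests on 39 UMIs in those non-cycling cells. Ero1l, an oxidase of the endoplasmic reticulum, had 77.6 and 197 CPM (-1.35) but a log2 ratio of 0.03 within C5. Grb14, an adaptor that restrains the insulin receptor, had 38.8 and 97.0 CPM (-1.32) but 0.39 within C3. The stress-induced gene Nupr1 had 129 and 291 CPM (-1.18) and -0.17 within C3. The vesicle fusion gene Vamp5 had 101 and 229 CPM (-1.18), with -0.53 within C3 and -0.18 within C5. The calcium-binding gene S100a1 (-1.12) had -0.36 within C3 and -0.33 within C5, and the scaffold gene Ahnak2 (-1.12) had -0.31 and -1.12.

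**Figure D3:**
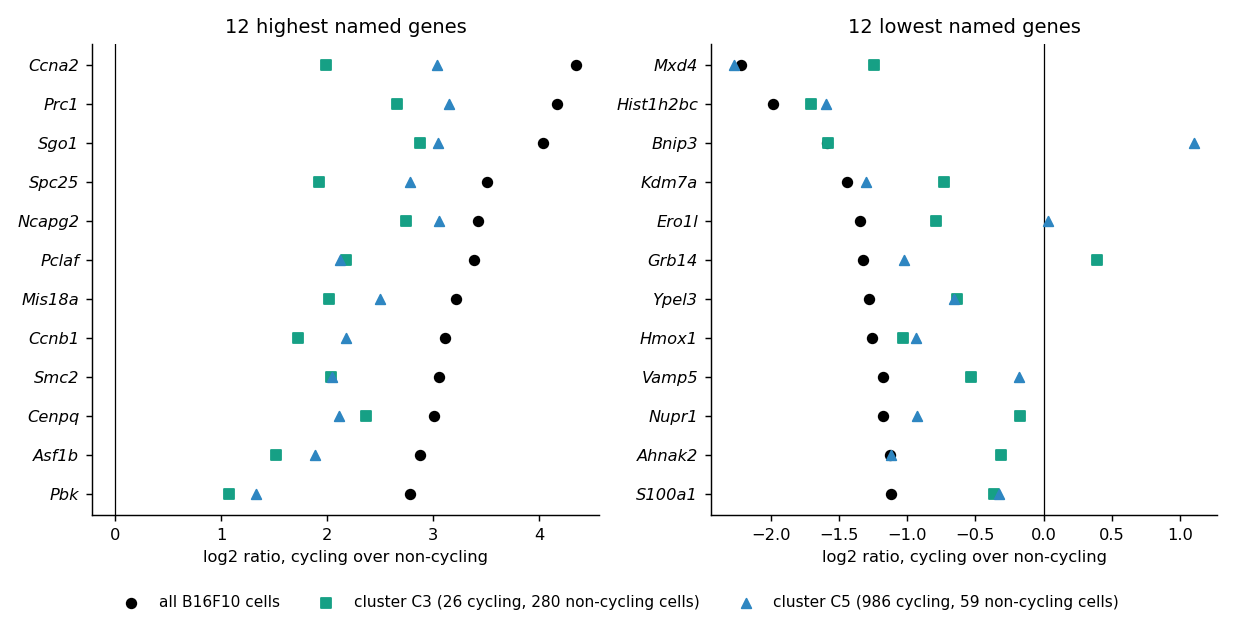
Log2 ratio of CPM, cycling over non-cycling (x axis), of the 12 genes named highest (left) and the 12 named lowest (right) among those with at least 50 CPM, over all B16F10 cells (black circles), within cluster C3 (green squares) and within cluster C5 (blue triangles). The genes named highest stay above 0 in both clusters, while Bnip3 is at 1.11 and Ero1l at 0.03 within C5 and Grb14 at 0.39 within C3.

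Across all calls, 247 of the 613 higher genes were at least 1.5-fold higher within cluster C3 also and 83 turned below 0, and within cluster C5 the numbers were 235 and 16. Of the 185 lower genes, 45 were at least 1.5-fold lower within C3 and 38 turned above 0, and within C5 the numbers were 81 and 22. Called anew within C3, 344 of 5148 counted genes were higher and 226 lower, and within C5, 283 and 205 of 5309. The higher genes were 60.4% and 58.0% of the calls there. The 26 cycling cells of C3 and the 59 non-cycling cells of C5 make these values less exact than those of the whole library. Of the 70 higher genes picked by the naming rule, 36 fell short of 1.5-fold in at least 1 of the clusters and 10 turned below 0 there. Of the 35 lower ones, 24 fell short and 7 turned above 0. What sets the clusters apart was not tested.

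The p53 targets were lower as a list over all cells: 0 of 10 counted members were at least 1.5-fold higher and 4 were lower, with a median of -0.39. Of all counted genes, 3.49% were lower by as much. Over the same members, the median was -0.16 within C3, with 1 lower, and -0.33 within C5, with 2 lower. Trp53inp1, a stress-induced partner of p53, stood at 6.14 CPM (5.44 to 6.91) in cycling cells and 34.0 CPM (30.6 to 37.5) in non-cycling cells, a log2 ratio of -2.47. Ccng1 had 87.3 and 184 CPM (-1.07), with -0.44 within C3 and -0.96 within C5. The inhibitor gene Cdkn1a, which encodes p21, had 155 CPM (152 to 159) in cycling cells and 286 CPM (277 to 297) in non-cycling cells, a log2 ratio of -0.88, with -0.24 within C3 and -0.32 within C5. The p53 antagonist gene Mdm2 had -0.30.

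Inhibitors of cyclin-dependent kinases went in opposite directions. Cdkn2c and Cdkn2d, which encode p18 and p19 of the INK4 family, were higher in cycling cells, at 62.4 and 22.8 CPM (1.45) and at 95.1 and 41.5 CPM (1.20). Cdkn2d turned to -0.16 within C3, and Cdkn2c had 0.04 within C3 and 0.42 within C5, short of 1.5-fold in both. Cdkn1b, which encodes p27, had 15.9 and 13.6 CPM (0.23, -0.03 to 0.49), below the minimum for a call and with an interval that holds 0. The inhibitor and quiescence list as a whole had 2 members higher, 2 lower and 6 between, with a median of 0.01 that turned below 0 under TMM scaling and when mitochondrial and ribosomal protein transcripts were left out of the total.

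Kdm5b, the slow-cycling marker, stood at 9.26 CPM (8.39 to 10.2) in cycling cells and 34.8 CPM (31.5 to 38.5) in non-cycling cells, a log2 ratio of -1.91, while its relative Kdm5a was at -0.11 (-0.24 to 0.01). The difference in Kdm5b was -1.71 within C3 and -1.92 within C5. The authors' Kdm5b-high class held 44 cycling cells, 3.58% of them (exact binomial interval 2.61 to 4.77), and 77 non-cycling cells, 22.4% (18.1 to 27.2). The cycling share was uneven, with 8 S-leaning cells, 1.23% (0.531 to 2.4), and 36 G2/M-leaning cells, 6.23% (4.4 to 8.52).

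Of 8 counted hypoxia response genes 3 passed 1.5-fold, on the low side, and the median of -0.53 stood at 0.06 within cluster C5. Besides Bnip3 these were its relative Bnip3l (-0.60) and the collagen hydroxylase gene P4ha1 (-0.61). Within C5, Bnip3l had -0.09 and P4ha1 -0.27, and within C3 they had -0.86 and -0.27. Glycolysis had a median of -0.02, which turned to 0.18 as UMIs per cell, and 3 of 15 members lower. These were the glucose transporter gene Slc2a1 at 13.4 and 23.6 CPM (-0.82) and the hexokinase genes Hk2 at 58.2 and 100.3 CPM (-0.79) and Hk1 at -0.65. Within C5 they stood at -0.07, 0.49 and 0.10, and within C3 at -1.74, -1.05 and -0.85, with list medians of 0.10 and -0.32 over the same members. Among all counted genes, 11.6% stood at least 1.5-fold higher and 3.49% lower. Of 23 counted genes of the ATF4 and unfolded protein responses, 3 passed 1.5-fold on the high side and 3 on the low side, and their median was 0.09. Of these, Ppp1r15a had 67.4 and 140 CPM (-1.06) and Ddit3 102 and 164 CPM (-0.69), while the chaperone genes Creld2 and Calr were on the other side at 0.87 and 0.66. Within C3 none of these passed 1.5-fold, with Ppp1r15a at -0.14, Ddit3 at -0.20, Creld2 at 0.42 and Calr at 0.09. Within C5, Ppp1r15a had -0.60, Ddit3 -0.43, Creld2 0.21 and Calr 0.47.

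The counted histone genes went in both directions, 3 lower and 1 higher. The linker histone gene Hist1h1c had 9.63 CPM in cycling cells and 34.1 CPM in non-cycling cells (-1.83) and the H2B gene Hist1h2bc 16.9 and 66.9 CPM (-1.99), while the linker histone gene Hist1h1e had 28.2 and 7.97 CPM (1.82). Most histone transcripts made in S phase lack the poly(A) tail on which this 3' method primes, and only 4 of 40 histone genes reached 20 CPM. Hist1h1e turned to -0.50 within C3, at 5 UMIs in cycling cells. Histone genes have near-identical copies, so these values are uncertain. The nuclear noncoding RNAs Malat1 and Neat1 were lower in cycling cells, at 4171 and 6258 CPM (-0.59) and at 110 and 193 CPM (-0.81), beside the lower mitochondrial share and higher UMI total of that class, whose part was not tested. Malat1 lay just past 1.5-fold and fell short of it in 9 of 18 alternatives, with -0.34 within C3, -0.30 within C5, -0.43 between the UMI quartiles and -0.39 as UMIs per cell, against -0.72 in the cells whose mitochondrial share did not pass 8%. Neat1 passed 1.5-fold in all 18, of which 3 change only the CPM minimum and not the ratio.

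The melanocyte genes differed little over all cells and more within C5. Of 17 counted pigment and melanosome genes 1 passed 1.5-fold, on the low side, where 3.49% of all counted genes did. The list median of -0.11 turned to 0.08 as UMIs per cell and to 0.15 over the same members within C5. Dct and Tyrp1, enzymes of melanin synthesis, stood at 2888 and 2937 CPM (-0.02) and at 2219 and 2280 CPM (-0.04), and the matrix gene Pmel at 736 and 717 CPM (0.04). Within C5, Pmel stood at 777 CPM in cycling cells and 476 CPM in non-cycling cells (0.71), Dct at 2780 and 1912 CPM (0.54), Mlana at 1750 and 1258 CPM (0.48) and Tyrp1 at 2156 and 1729 CPM (0.32). Within C3, Pmel had 0.45 and Dct -0.08. Tyr, the rate-limiting enzyme, had 17.5 CPM (16.3 to 18.8) in cycling cells and 26.1 CPM (23.2 to 29.2) in non-cycling cells (-0.57), just inside 1.5-fold, and the receptor gene Mc1r had 79.6 and 127 CPM (-0.67), with -0.34 within C3 and -0.57 within C5. Mitf, the lineage regulator, had 155 and 202 CPM (-0.38, -0.45 to -0.31), Sox10 had 106 and 106 CPM (0.00), and the lineage gene Pax3 had 191 and 160 CPM (0.26). The authors' deposited score for MITF had a median of -0.195 over cycling cells (quartiles -0.361 and 0.00302) and -0.0212 over non-cycling cells (-0.228 and 0.197), so the classes overlap on it. Met had a log2 ratio of -0.43, and the coactivator gene Ppargc1a had 107 and 194 CPM (-0.86) but 0.36 within C3 and 0.45 within C5.

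Cytosolic ribosomal protein genes were slightly lower across the list, with a median of -0.22 over 82 members that ran from -0.33 to -0.03 under the 6 other scalings. Over the same members, the median was -0.08 within C3 and -0.08 within C5. Only Rpl3, at 2015 CPM in cycling cells and 3038 CPM in non-cycling cells (-0.59), reached 1.5-fold, and it had -0.21 within C3 and -0.34 within C5. Mitochondrially encoded transcripts had a median of -0.17, which turned to 0.02 as UMIs per cell and stood at 0.003 within C3 and -0.07 within C5. Lysosome and autophagy genes had a median of -0.22, with 1 of 25 at least 1.5-fold lower, beside 3.49% of all counted genes. The 1 gene was the sialidase gene Neu1 at -0.64, which had -0.36 within C3 and -0.43 within C5. The secreted lectin gene Lgals3 stood at 441 and 778 CPM (-0.82), and S100a6 at 18.8 and 31.9 CPM (-0.76). Lgals3 fell short of 1.5-fold in both clusters, at -0.55 within C3 and -0.21 within C5, while S100a6 had -1.27 within C5 and -2.52 within C3, on 4 UMIs in cycling cells there. Of 4 counted interferon-stimulated genes none reached 1.5-fold (median -0.41, and 0.14 over the same genes within cluster C3).

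**Figure D4:**
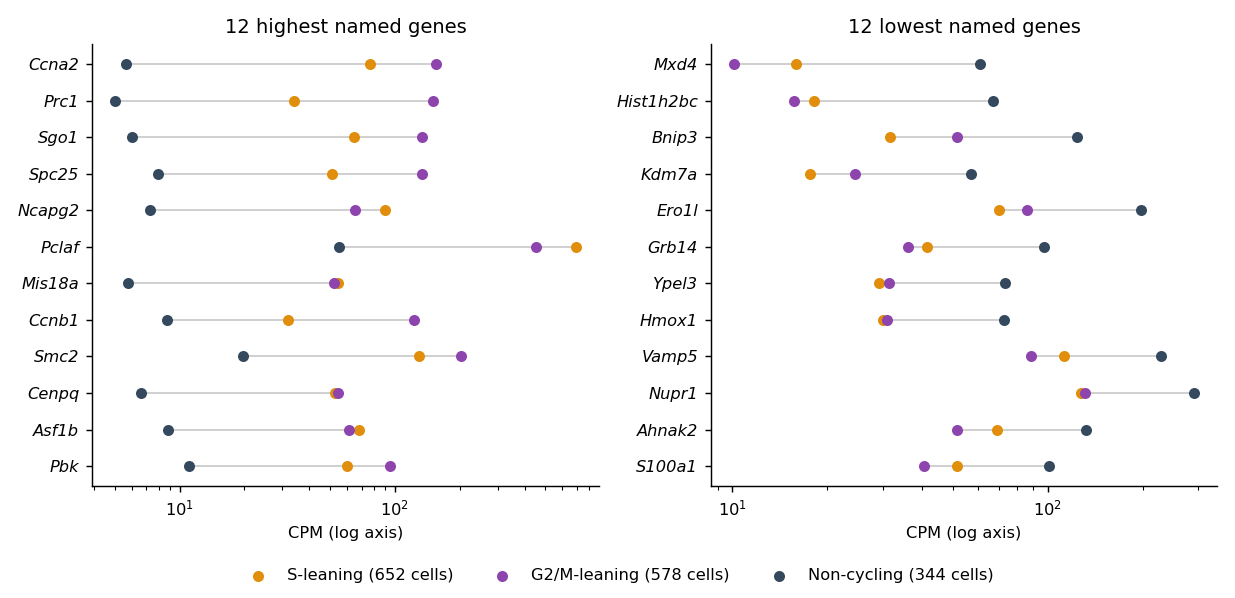
CPM on a log axis of the 12 genes named highest (left) and the 12 named lowest (right) in S-leaning cycling cells (orange), G2/M-leaning cycling cells (purple) and non-cycling cells (dark blue), with grey lines joining the 3 values of a gene. Both kinds of cycling cells lie on the same side of the non-cycling cells for all 24 genes, and Prc1 and Ccnb1 are farthest apart between S-leaning and G2/M-leaning cells.

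Split by the leading score, most differences were carried by both kinds of cycling cells. Of the 613 higher genes, 520 (84.8%) lay within 1.5-fold between G2/M-leaning and S-leaning cells, 59 were higher in G2/M-leaning and 34 higher in S-leaning cells. Over all 5256 genes counted in that contrast, 88 (1.67%) stood 1.5-fold or more above S-leaning cells in G2/M-leaning cells and 58 (1.1%) as far below. Scoring genes set this split, so the values are a description. Plk1 stood at 14.1 CPM in S-leaning, 69.1 CPM in G2/M-leaning and 2.87 CPM in non-cycling cells, Prc1 at 34.1, 151 and 5.02 CPM, and Aspm at 6.38, 39.3 and 0.358 CPM. The S phase regulators ran the other way, with E2f1 at 131, 55.2 and 23.5 CPM, Ccne1 at 89.8, 37.2 and 36.1 CPM and Chaf1a at 104, 57.0 and 12.2 CPM. Ccne1 was thus at nearly the same level in G2/M-leaning and non-cycling cells. Of the 185 lower genes, 185 had ratios below 0 against both kinds of cycling cells, and 124 were at least 1.5-fold lower in both. Against non-cycling cells, S-leaning cells alone had 12.2% of genes at least 1.5-fold higher and 3.41% lower, and G2/M-leaning cells alone had 10.9% and 4.02%. Cdkn2d, at 54.4, 138 and 41.5 CPM, and Cdkn2c, at 44.8, 81.1 and 22.8 CPM, were highest in G2/M-leaning cells.

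The values were graded across the line between the classes. Per cell, the replication, kinetochore and spindle genes outside the scoring genes had a median sum of 6209 CPM in cycling cells away from the line and 3811 CPM in cycling cells near it. The sums were 2884 CPM in non-cycling cells near it and 1801 CPM in those away from it. The 12 genes named lowest had median sums of 473, 784, 1105 and 1339 CPM in the same order. These 12 genes were chosen for their low ratios in the same cells, so lower sums on the cycling side follow from the choice. The melanocyte markers had 7673, 7696, 8249 and 7937 CPM.

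Set beside the same contrast in the parental line, some genes had close ratios in both lines and others did not. In B16F0, 390 of 4965 genes (7.85%) passed 1.5-fold on the high side in cycling cells and 52 (1.05%) on the low side. Of the 560 higher genes of B16F10 that were counted in B16F0 also, 312 were at least 1.5-fold higher there and 9 were below 0. Of the 134 lower genes counted in both, 38 were at least 1.5-fold lower there and 8 were above 0. Across 4758 genes the ratios had a Pearson r of 0.897 and a Spearman rho of 0.783, and r was 0.833 over the 4639 genes outside the cell cycle lists, a description across genes that share their libraries. Ccna2 had a log2 ratio of 4.35 in B16F10 and 4.34 in B16F0, and Kdm5b -1.91 and -1.94. The replication median was 2.09 in B16F10 and 1.92 in B16F0, the kinetochore median 2.44 and 2.65, and the recombination median 1.84 and 1.16.

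Some genes of the low end had smaller ratios in B16F0. Mxd4 had a log2 ratio of -2.22 in B16F10 and -1.16 in B16F0, Bnip3 -1.59 and -0.85, Ero1l -1.35 and -0.18, Nupr1 -1.18 and -0.19, and Ppp1r15a -1.06 and -0.12. The p53 target median was -0.39 in B16F10 and 0.08 in B16F0. Among the lists of moderate size, nucleolus and ribosome biogenesis had medians of 0.37 and 0.05, the proteasome 0.27 and -0.06, and heat shock and chaperonins 0.33 and -0.03. With 1 library per line, the difference between lines was not tested, and line and library cannot be told apart.

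**Figure D5:**
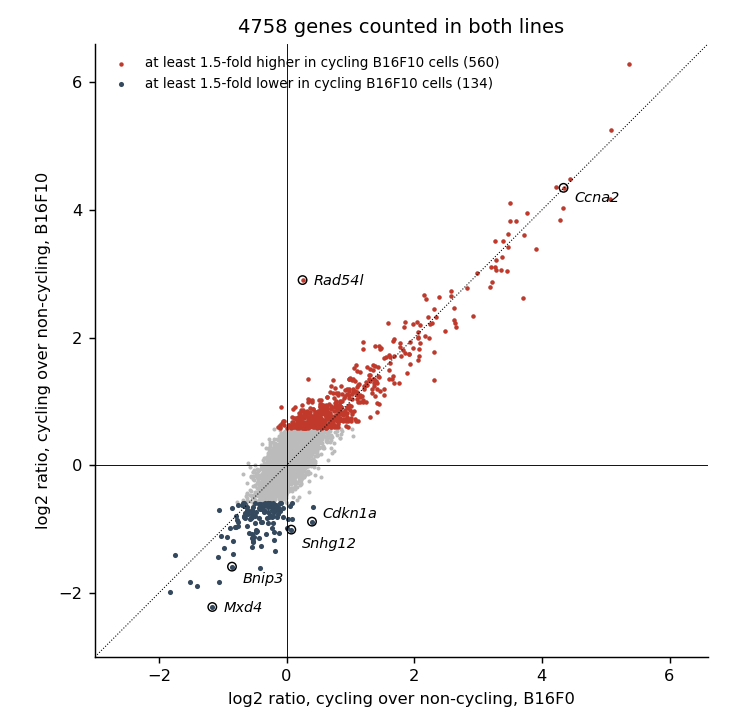
Log2 ratio of CPM, cycling over non-cycling, in B16F10 (y axis) and B16F0 (x axis) for the 4758 genes counted in both lines, with red points at least 1.5-fold higher and dark blue points at least 1.5-fold lower in cycling B16F10 cells and a dotted line where the ratios are equal. Ccna2 lies on that line at 4.35 and 4.34, while Cdkn1a is at -0.88 in B16F10 and 0.40 in B16F0.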

How the data were processed

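Used here were the authors' deposited raw UMI counts (14959 genes, 4156 cells) and their deposited annotation of each cell, which holds its line, cluster, classes and scores. The submitters' processing notes name Cell Ranger 3.0.0, Seurat 3.0 and the build mm10. The treatment of reads shared between genes, the use of strand and the cell filters are not stated in the labels or headers used here. The S, G2/M and MITF scores are the authors' own. Deposited cells held at least 3011 genes and at most 19.9% mitochondrial UMIs. No doublet caller was run, and 6 barcodes occurred in both libraries.

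Counts were summed over 45585900 UMIs of cycling and 11162782 of non-cycling B16F10 cells and scaled by the class total to CPM, so 3 counts correspond to 0.0658 and 0.269 CPM. Log2 ratios carry exact conditional binomial 95% intervals and levels exact Poisson intervals, for counting error only. A gene outside the 103 scoring genes was called past 1.5-fold if its higher class had 20 CPM or more. The ratio step was run on simulated Poisson counts of the class sums, without variation between cells, which checks its arithmetic only. Named genes are the 12 at either end with at least 50 CPM (without predicted, ribosomal protein and mitochondrially encoded genes), the 3 members of each of 40 lists with the largest absolute ratio at 20 CPM, and 31 fixed genes. Ccnd2, Pttg1 and genes given as differing between the lines were named after their values were seen. A gene that the rule names is not reported here. The members, lists and rules were chosen with earlier results of these data known. Positions are from GENCODE M21 on GRCm38, where 98.6% of symbols matched 1 gene, and promoter sequences from RefSeq on GRCm38.p6, also by older symbols.

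Alternatives were other scalings (TMM from edgeR, median of ratios, totals without some genes, mean of per-cell CPM), cells thinned to 23173 UMIs (leaving out 101 cycling and 57 non-cycling cells), sets of cells chosen by UMIs, mitochondrial share, score or cluster, and 3 other CPM minimums. Cluster C5 alone, mean UMIs per cell without scaling and list medians within a cluster over the members counted in all cells were added after the data were seen. TMM came from edgeR 4.0.16 in R 4.3.3, intervals from scipy 1.17.1, figures from matplotlib 3.10.9, and the rest from pandas 2.3.3 and numpy 2.4.6 under Python 3.11.15.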

Additional observations from a re-analysis of the deposited data

Results flagged for a closer look

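Cdkn1a, Snhg12, Calr and Pdia3 had ratios on opposite sides of 0 in the 2 lines, cycling over non-cycling, with counting intervals that leave out 0 on both sides. The difference between the lines was not tested for any of them, since each line has 1 library. Cdkn1a, which encodes the cell cycle inhibitor p21, had a log2 ratio of -0.88 in B16F10 and 0.40 in B16F0. The noncoding host gene Snhg12 had -1.01 in B16F10 and 0.074 in B16F0. The chaperone genes Calr and Pdia3 had 0.66 and 0.59 in B16F10 and -0.070 and -0.10 in B16F0. Within cluster C3 of B16F10, Pdia3 was at -0.39, and the cause was not tested.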

How the results depend on the processing

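No paired analysis was possible because each line has 1 library and no test was made. Of 105 named genes at 1.5-fold or more, 105 kept their direction outside the settings limited to 1 cluster, 77 were also past 1.5-fold in each of those other settings, and 43 were past it in every setting. TMM, median of ratios, a total without scoring genes, the mean of per-cell CPM, thinned cells, UMIs between the quartiles, cells without the 5% with the most UMIs, cells with at most 8% mitochondrial UMIs and cells away from the line kept the counts in B16F10 within 1.5 times, at 565 to 664 higher and 171 to 204 lower.

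A minimum of 5 CPM gave 1110 higher and 481 lower genes in B16F10 (805 and 165 in B16F0), 100 CPM gave 147 and 32 (79 and 2), and no minimum gave 2540 and 2440 (1939 and 1686). The histone median turned to 0.0093 at 5 CPM and 1.12 with no minimum, since more members were counted, and to 0.079 within C5, where other members were counted (-0.83 over the same members). A total without mitochondrial and ribosomal protein transcripts gave 422 lower genes in B16F10 and 115 in B16F0, since it raises every CPM and shifts the ratios. Mean UMIs per cell gave 1172 higher and 85 lower genes (26 lower in B16F0). G2/M-leaning cells alone gave 107 lower genes in B16F0.

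Within cluster C3, 344 of 5148 counted genes were higher, 5 lists had a median of 1.5-fold or more, against 8, over the members counted there, and 54.7% of the higher genes lay within 1.5-fold between G2/M-leaning and S-leaning cells. In C3 of B16F0, 203 of 4917 counted genes were higher and 22 lower. Log2 ratios turned there in B16F10 for Grb14 (0.39), Cdkn2d (-0.16), Pdia3 (-0.39), Mrps22 (-0.33), Mrpl47 (-0.13), Dnajb1 (-0.080), Psmd12 (-0.057), Psmd1 (-0.49), Hnrnpd (-0.11), Idi1 and Hist1h1e (-0.50 each), Bcl2l1 (0.10), Axl (0.81) and Ppargc1a (0.36). Within C5, 283 of 5309 counted genes were higher, and Bnip3 (1.11), Ero1l (0.031), Hk2 (0.49), Hk1 (0.10), Cdkn1c (0.21) and Ppargc1a (0.45) turned. The cause was not tested. Axl and Cdkn1c were below the minimum for a call, and their turned ratios rest on few molecules. Axl had 6 UMIs in the cycling cells of C3, and Cdkn1c 23 UMIs in cycling and 1 in non-cycling cells of C5. Cluster C5 alone gave no value in B16F0, where it held 0 non-cycling cells. The 11162782 UMIs of the non-cycling class limit the precision of low genes.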

Other observations

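Genes named here were chosen after their values were seen, for the distance between their ratios in the 2 lines, which was not tested. Rad54l, which works in recombinational repair, stood at 20.8 CPM in cycling and 2.78 CPM in non-cycling B16F10 cells (log2 ratio 2.90), and at 70.3 CPM in cycling and 59.1 CPM in non-cycling B16F0 cells (0.25). Its 3' end lies opposite that of Lrrc41, with an overlap of 2780 bases, and the part of this overlap was not tested. Its ratio within cluster C3 of B16F10 was 3.06 and within C5 1.71. The kinetochore gene Ska1 had 2.61 in B16F10 and 3.70 in B16F0, and the tubulin gene Tubb6 had 1.34 and 2.31. The mitochondrial folate gene Aldh1l2 stood at 36.2 CPM in cycling and 64.8 CPM in non-cycling B16F10 cells (-0.84), and at 26.7 CPM in cycling and 25.2 CPM in non-cycling B16F0 cells (0.08). The chaperone gene Hsph1 had 0.91 in B16F10 and -0.08 in B16F0, Cacybp had 0.92 and 0.13, and Acat2 1.34 and 0.34.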
